A study of Homo sapiens and Mus musculus with 4 samples.

Results

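The AP-1, EGR and NR4A1 early-response transcription factors were followed in bulk RNA-seq of 4 lymphocyte cell lines. The set was chosen by gene name and held 10 human genes, FOS, FOSB, FOSL2, JUN, JUNB, JUND, EGR1, EGR2, EGR3 and NR4A1, of 32738 human genes in the table. It also held the 10 mouse genes with the same symbols, of 27998 mouse genes, which made 20 of 60736 genes in all. The study placed these lines together as a defined mixture of immune cells, and their bulk libraries served as its reference. Jurkat is a human CD4+ T-cell leukaemia line, and TALL104 is a human CD8+ T-cell leukaemia line that was grown with the cytokine IL-2. The mouse lines were EL4, CD4+ T cells of a lymphoma, and IVA12, a hybridoma of the B lineage. The labels give no treatment, genotype or time for any line. Each line had 1 library, so no difference has a replicate check, no test across genes was made, and each comparison is between 2 libraries. Each line also had its own growth medium, so line, medium and IL-2 cannot be told apart.

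AP-1 factors are dimers of a JUN family protein with a FOS family or another JUN family protein, and they bind a short shared DNA element. EGR proteins are zinc finger factors, and NR4A1 is an orphan nuclear receptor. In lymphocytes the genes for many of these factors are switched on within minutes of antigen receptor or growth factor signalling, without new protein synthesis, and their messenger RNAs are short-lived.

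Such signals can act through short DNA elements near the start of transcription. The stretches below show letter matches to short elements in 6 human members, and whether the matches carry such signals was not tested. The sequences are from RefSeq on GRCh38.p14, whose promoters hold 250 bases before and 50 after a start. An entry was matched for 9 of the 10 human members, with 3 starts for EGR2 and 2 for NR4A1. EGR3 had no entry. Capitals mark only the motifs named here for each gene. In FOS and FOSB they mark TGACG, the shorter form of the cAMP response element, followed by a TATAAA box. In JUN they mark TGACATCA, a site of the kind bound by JUN with ATF2, and in JUND the full cAMP response element TGACGTCA. In EGR1 and EGR2 they mark the CArG box, the element of serum response factor. The EGR2 stretch also holds TGACG on the other strand, at positions -54 to -50, left in lower case. All stretches are written 5′ to 3′ on the gene's strand and end before the annotated start.
FOS, chr14:75278748-75278807, plus strand: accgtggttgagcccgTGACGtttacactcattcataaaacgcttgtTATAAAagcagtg
FOSB, chr19:45467916-45467975, plus strand: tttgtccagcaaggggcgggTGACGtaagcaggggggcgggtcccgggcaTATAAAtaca
JUN, chr1:58784088-58784137, minus strand: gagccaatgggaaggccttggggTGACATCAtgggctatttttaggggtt
JUND, chr19:18281793-18281842, minus strand: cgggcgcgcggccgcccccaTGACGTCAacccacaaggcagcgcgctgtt
EGR1, chr5:138465354-138465413, plus strand: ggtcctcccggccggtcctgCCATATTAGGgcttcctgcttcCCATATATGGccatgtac
EGR2, chr10:62816412-62816461, minus strand: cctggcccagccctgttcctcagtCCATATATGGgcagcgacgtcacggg

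Each motif was searched on both strands over all 35116 promoters of 300 bases. The CArG box was in 2 of the 9 members searched, EGR1 and EGR2, and in 1.29% of all promoters. EGR1 held it at 2 places, at positions -105 to -96 and -83 to -74 from the start. EGR2 held it at positions -71 to -62 from 1 of its 3 starts. The full element TGACGTCA was in JUND and in 1.85% of promoters, and TGACATCA was in JUN and in 2.61%. The classical AP-1 site TGACTCA was in FOSL2, just past the start, and in 4.95% of promoters. The shorter TGACG, which overlaps TGACGTCA, was in 8 of 9 members and in 24.6% of promoters. TATAAA was in FOS, FOSB and JUNB and in 11.5% of promoters. No motif of these 6 was found in NR4A1, and for FOS the well-known serum response element lies further upstream than the window. These matches are letters in a window and say nothing on binding in these cells.

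**Figure D1:**
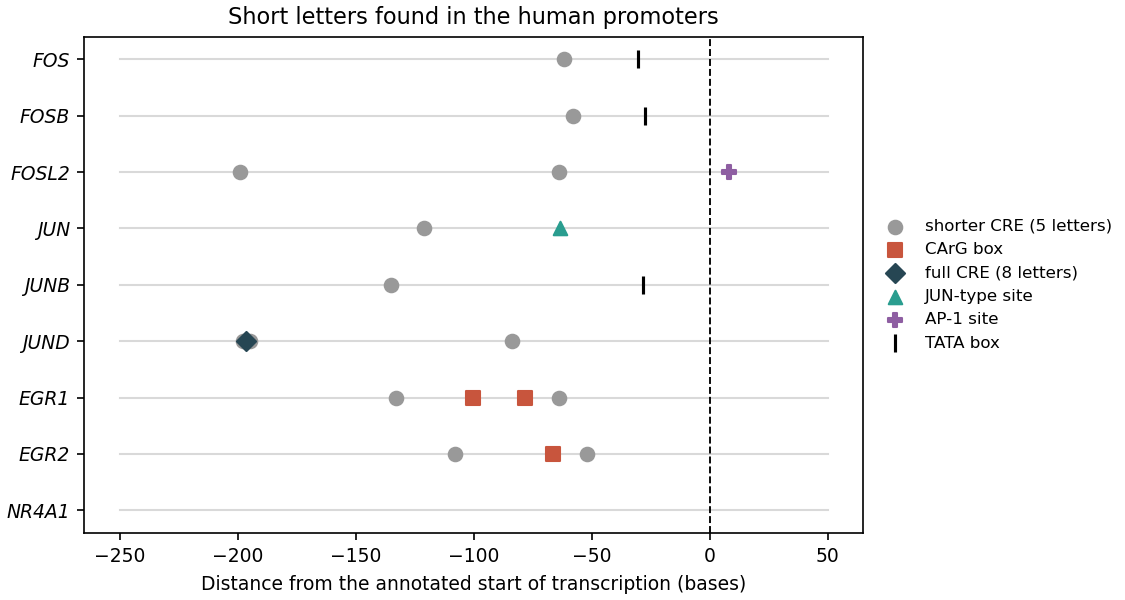
Positions of 6 short motifs in the promoters of 9 human members, plotted by distance in bases from the annotated start (x axis), with 1 row per gene. The shorter cAMP response element was in 8 of 9 rows, the CArG box only in EGR1 and EGR2 among these 9 genes, and the row of NR4A1 is empty.

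The 4 libraries held between 25286728 and 34783047 reads, as recovered from the values, and 9596 to 10857 genes of the line's own species at 1 FPKM or more. FPKM divides the reads of a gene by its length and by the library total, so a level is per length. The authors' lengths are not given, and those recovered did not match the annotation for most of these genes, as given below. Error bounds below are exact 95% intervals for counting error only. Jurkat and TALL104 expressed all 8 T cell markers at 1 FPKM or more, with summed levels of 1034 and 882 FPKM. EL4 did too, with a sum of 780 FPKM against 12.03 in IVA12. In IVA12 the 8 B cell and plasma cell markers summed to 2699 FPKM, led by Jchain at 1289 FPKM, but the defining markers Cd79a (0.0543 FPKM) and Pax5 (0.156 FPKM) were near 0. The 8 B-lineage markers summed to 66.5, 39.3 and 108 FPKM in Jurkat, TALL104 and EL4. In the human T-cell lines 4 of the 8 reached 1 FPKM in Jurkat or TALL104, so single markers of this list do not set the B lineage apart. In EL4 nearly all of that sum was Pou2af1 at 107 FPKM, and the other 7 were at 0.326 FPKM or less. The 4 myeloid markers summed to between 0.119 and 1.65 FPKM in the 4 lines, with CSF1R and Csf1r at 0 in each.

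JUNB and JUND, or their mouse genes, were the highest 2 AP-1 members in every line, and 4 or 5 of the 10 factors reached 1 FPKM in any 1 line. In Jurkat the order was JUNB at 7.22 FPKM, JUND at 7.20, FOSL2 at 1.80, JUN at 1.48 and EGR1 at 0.989, with the other 5 factors below 0.6 FPKM. JUNB and JUND could not be told apart there by their intervals, nor could FOSL2 and JUN. In TALL104 the order was JUND at 18.3 FPKM, JUNB at 11.9, FOSL2 at 10.3, JUN at 6.24 and EGR2 at 5.28, and none of these 5 overlapped the next. The other 5 were below 0.7 FPKM.

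In EL4 the leading gene was Nr4a1 at 10.99 FPKM, with Jund at 10.86 and Junb at 10.1, and the intervals of these neighbours overlapped. Egr1 followed at 2.55 FPKM, and the other 6 were below 0.9 FPKM. In IVA12 the order was Jund at 28.0 FPKM, Junb at 27.9, Jun at 12.7 and Fosl2 at 1.42, and only the first pair overlapped. The other 6 were below 0.5 FPKM, and Egr1, Egr2 and Egr3 were all listed at 0. Among the genes with at least 1 FPKM, the leading member stood at percentile 43.8 in Jurkat and 75.9 in TALL104, and at 51.1 and 78.4 in EL4 and IVA12. The gene lengths recovered from the FPKM matched the annotation for 1 of 10 human and 6 of 10 mouse members. In mouse they did not for Nr4a1 (1237 bases recovered, 3509 annotated), Junb (920 and 2301), Jund (2878 and 1668) and Egr3 (1416 and 4406). The order of genes within a line, and the family sums and shares below, are of the deposited FPKM. They rest on the authors' gene lengths, which are not given, while FPKM ratios of 1 gene between lines do not. The recovered lengths enter only the reads and the counting intervals, of levels and of ratios. In bulk RNA fewer expressing cells and less RNA per cell cannot be told apart.

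**Figure D2:**
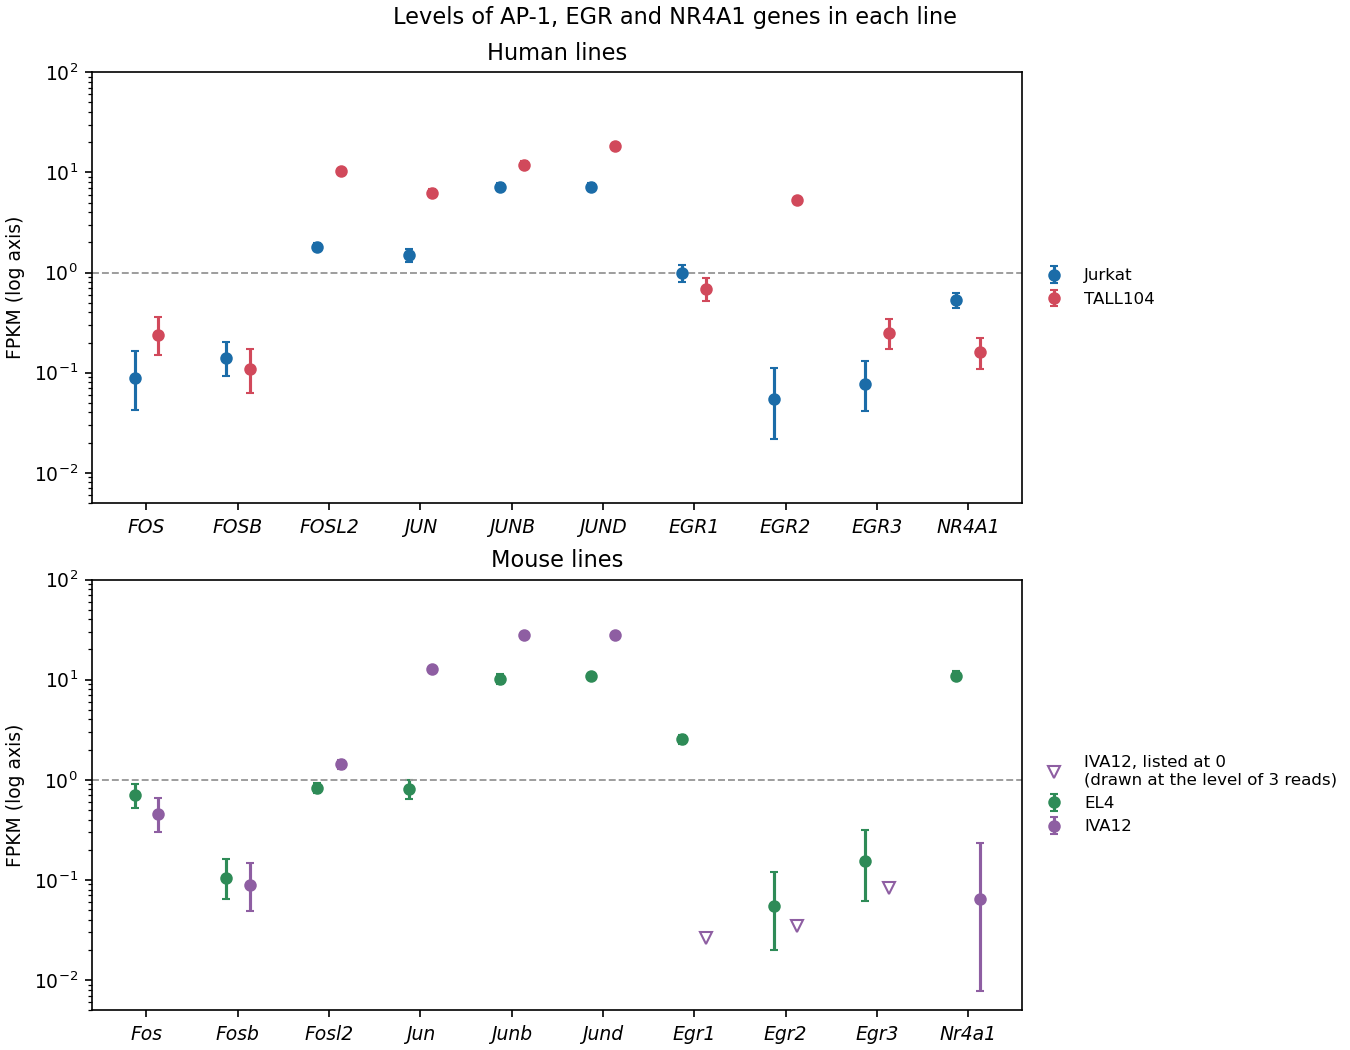
FPKM (log axis) of the 10 factors in the 2 human lines (top) and of the mouse genes of the same symbols in the 2 mouse lines (bottom). Points are the 1 library of each line, bars the exact 95% counting interval, open triangles genes listed at 0 and drawn at the level of 3 reads, and the dashed line 1 FPKM. JUNB and JUND lie above the other AP-1 genes in each line, and the 3 Egr genes are at 0 in IVA12.

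Summed by family, JUN, JUNB and JUND made up most of the message in every line. Their sum was 15.9 FPKM in Jurkat and 36.5 FPKM in TALL104 among the human lines, and 21.8 FPKM in EL4 against 68.7 FPKM in IVA12 among the mouse lines. These were 81.2%, 68.2%, 58.6% and 97.1% of the summed FPKM of the 10 factors. The FOS family summed to 2.03 FPKM in Jurkat, but to 10.7 FPKM in TALL104, and to 1.63 and 1.96 FPKM in EL4 and IVA12. The JUN family therefore exceeded the FOS family in each line, by 7.82-fold in Jurkat and 3.42-fold in TALL104, and by 13.3-fold and 34.9-fold in EL4 and IVA12. FOSL2 carried 88.8% of the FOS family sum in Jurkat and 96.7% in TALL104. The EGR family summed to 1.12 FPKM in Jurkat and 6.21 FPKM in TALL104, and to 2.76 and 0 FPKM in EL4 and IVA12. EGR1 led it in Jurkat and EL4 (88.3% and 92.4% of the sum), and EGR2 led it in TALL104 (85.0%). Nr4a1 alone held 29.5% of the 10-gene sum in EL4, against 2.72% or less in the other 3 lines.

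**Figure D3:**
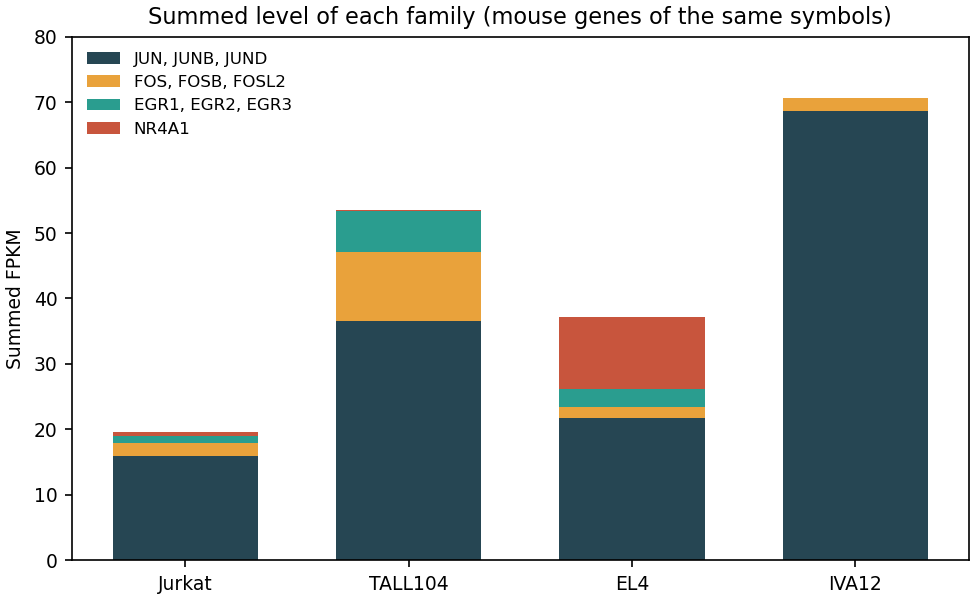
Summed FPKM (y axis) of the JUN, FOS and EGR families and of NR4A1 in each line, stacked, with 1 library per line. The JUN family is the tallest part of every bar, from 58.6% in EL4 to 97.1% in IVA12, and NR4A1 is a broad part in EL4 only.

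The first comparison was between the human T-cell lines, Jurkat and TALL104. A gene was counted as different when the ratio of FPKM + 1 passed 1.5-fold. 5 of the 10 factors passed, FOSL2, JUN, JUNB, JUND and EGR2, and all 5 were higher in TALL104. Over all genes 25.3% passed, 11.4% with the higher level in TALL104 and 13.8% with the higher level in Jurkat. Among the 12214 genes with at least 1 FPKM in either line 62.6% passed, 28.4% higher in TALL104 and 34.2% higher in Jurkat. The 5 factors that passed were the 5 with at least 1 FPKM in either line, and EGR2 reached that level only in TALL104. The median log2 ratio over the 10, Jurkat minus TALL104, was -0.43, beside 0 over all human genes. It was 0.10 over the genes with at least 1 FPKM in either line, a filter not put on the 10. The 5 factors with at least 1 FPKM in either line ran from -2.57 (EGR2) to -0.65 (JUNB).

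Of the FOS family, FOSL2, which encodes FRA-2 and lacks the strong activation domains of FOS and FOSB, differed most. Its level was 1.80 FPKM in Jurkat (449 reads) and 10.3 FPKM in TALL104 (2094 reads), 5.72-fold higher in TALL104 (5.17 to 6.35). The log2 ratio of FPKM + 1, Jurkat minus TALL104, was -2.01. FOS itself, the archetype of the family, rested on few reads in both, at 0.0888 FPKM in Jurkat (10 reads) and 0.240 FPKM in TALL104 (22 reads). That is a ratio of 2.70 (1.23 to 6.39) toward TALL104 in FPKM, but within 1.5-fold on FPKM + 1 (log2 ratio -0.19). Human FOS was read at a like level, 0.0977 FPKM (8 reads), in the mouse library IVA12. FOSB was at 0.140 FPKM in Jurkat and 0.108 FPKM in TALL104, a ratio toward Jurkat of 1.29 whose interval of 0.680 to 2.53 includes 1. FOSL2 (ENSG00000075426) lies at chr2:28615315-28640184 on hg19 and is overlapped by the antisense gene FOSL2-AS1 and by 1 gene on its own strand.

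All 3 JUN family genes were higher in TALL104. JUN, a strong activator and the target of the JNK kinases, was at 1.48 FPKM in Jurkat (171 reads) and 6.24 FPKM in TALL104 (587 reads), 4.21-fold higher (3.55 to 5.02; log2 ratio -1.54). JUND, which is expressed in many resting cells, was at 7.20 FPKM in Jurkat and 18.3 FPKM in TALL104, 2.55-fold higher (2.28 to 2.85; log2 ratio -1.24). JUNB, which can oppose JUN at AP-1 sites, was at 7.22 FPKM in Jurkat and 11.9 FPKM in TALL104. It was 1.65-fold higher (1.46 to 1.87; log2 ratio -0.65), the smallest difference of the 5 and the only one under 2-fold on FPKM + 1. On hg19 JUN (ENSG00000177606) lies at chr1:59242517-59249720, JUNB (ENSG00000171223) at chr19:12902300-12904129 and JUND (ENSG00000130522) at chr19:18390504-18392432. JUNB overlaps HOOK2 on the opposite strand, and whether the bulk counting used the strand is not given in the sources used here.

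EGR2, a factor linked to restraint of T-cell activation, had the widest gap of the human members. It was at 0.0546 FPKM in Jurkat (7 reads) and at 5.28 FPKM in TALL104 (552 reads), 96.8-fold higher in TALL104 (46.7 to 242; log2 ratio -2.57). EGR2 (ENSG00000122877) lies at chr10:64571756-64578927 on hg19 and has the CArG box shown above. It is overlapped by 1 annotated gene on its own strand, whose reads cannot be told apart from its own where they overlap. EGR1, which carries 2 CArG boxes in its promoter, went the other way in FPKM, at 0.989 in Jurkat (108 reads) and 0.686 in TALL104 (61 reads). The ratio toward Jurkat was 1.44 (1.04 to 2.01) and stayed within 1.5-fold on FPKM + 1 (log2 ratio 0.24). EGR3 was at 0.0770 FPKM in Jurkat (13 reads) and 0.247 FPKM in TALL104 (34 reads), a ratio of 3.21 (1.65 to 6.63) toward TALL104 at levels below 1 FPKM. In FPKM as given, EGR2 and EGR1 thus stood in opposite order in these lines. For EGR1 that order is uncertain, since its interval started at 1.04. Scaling by the median ratio of genes, which shifts human log2 FPKM ratios by -0.11, takes that low end under 1.

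NR4A1, the nuclear receptor also called NUR77 and widely used as a readout of T-cell receptor signalling, was low in both human lines. It was at 0.532 FPKM in Jurkat (135 reads) and 0.160 FPKM in TALL104 (33 reads). The FPKM ratio was 3.33 toward Jurkat (2.26 to 5.04), but on FPKM + 1 the log2 ratio was 0.40, within 1.5-fold. Among the 10 human factors NR4A1, EGR1 and FOSB were the ones with the higher value in Jurkat.

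**Figure D4:**
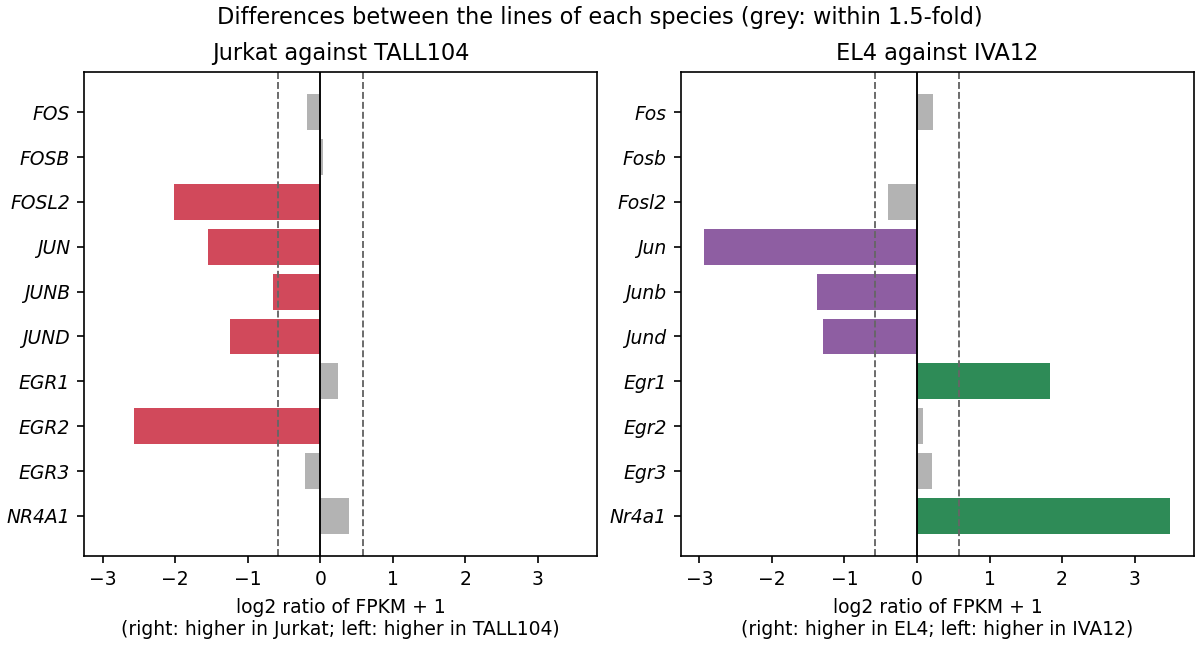
Log2 ratio of FPKM + 1 (x axis) of each factor between the 2 human lines (left) and the 2 mouse lines (right), from 1 library per line. Dashed lines mark 1.5-fold, and coloured bars pass it. The 5 coloured human bars all point to TALL104, and the 5 coloured mouse bars split into 3 toward IVA12 and 2 toward EL4.

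The other genes of the pathway were described from lists given by function. Of the 12 other AP-1 family genes and partners, 4 were higher in TALL104, 3 were higher in Jurkat and 5 were within 1.5-fold. MAF, a large MAF family factor, was at 0.0288 FPKM in Jurkat and 25.2 FPKM in TALL104. BATF3, a partner of JUN proteins, was at 6.33 FPKM in Jurkat and 0.585 FPKM in TALL104. ATF2, the list's most abundant gene, was near equal at 18.2 and 16.9 FPKM. Of the 5 other EGR and NR4A genes and NAB corepressors, 1 was higher in Jurkat and the other 4 were within 1.5-fold. The gene that passed was NAB1, a corepressor of EGR proteins, at 10.4 FPKM in Jurkat and 5.84 FPKM in TALL104.

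Of 20 other early-response genes, 12 were higher in TALL104, 3 were higher in Jurkat and 5 were within 1.5-fold, with a median log2 ratio of -1.35. KLF6, a zinc finger factor, was at 3.89 FPKM in Jurkat and 81.3 FPKM in TALL104. MCL1, a survival gene and the most abundant of the list, was at 43.8 and 144 FPKM. KLF2, a factor of quiescent T cells, went the other way, at 6.33 FPKM in Jurkat and 0.0350 FPKM (1 read) in TALL104. Early-response genes were thus not all higher in 1 line.

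Of 12 feedback genes, phosphatases and inhibitors of the MAP kinase route and factors of messenger RNA decay, 8 were higher in TALL104 and 3 in Jurkat, with a median log2 ratio of -1.57. DUSP6, a phosphatase of MAP kinases, was at 0.354 FPKM in Jurkat and 32.3 FPKM in TALL104. ZFP36L2, a messenger RNA decay factor, was at 25.6 and 64.0 FPKM. SPRED1, an inhibitor of the RAS route, was at 2.77 FPKM in Jurkat and 0.0470 FPKM in TALL104. Of 20 upstream kinases and activating factors, 7 were higher in TALL104, 3 were higher in Jurkat and 10 were within 1.5-fold (median log2 ratio -0.17). All 20 had at least 1 FPKM in either line, where 62.6% of genes passed, 28.4% higher in TALL104 and 34.2% in Jurkat. RASGRP1, which couples the T-cell receptor to RAS, was at 22.1 and 100 FPKM. SRF, the factor that binds the CArG box, was at 22.5 FPKM in Jurkat and 11.1 FPKM in TALL104. That is the reverse order of EGR2 and, in FPKM, the same order as EGR1, and a link was not tested.

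Of 8 activation-induced lymphocyte genes, 5 were higher in TALL104 and 1 in Jurkat, with a median log2 ratio of -2.26. The cytokine gene TNF was at 0.103 FPKM in Jurkat (3 reads) and 49.5 FPKM in TALL104, and CD40LG, which encodes the CD40 ligand, at 36.7 and 106 FPKM. TNFRSF4, which encodes the costimulatory receptor OX40, was at 1.77 FPKM in Jurkat and 0.799 FPKM in TALL104. Of 8 heat shock and stress genes, 5 were higher in Jurkat and 2 in TALL104 (median log2 ratio 0.84). DNAJA1 was at 292 FPKM in Jurkat and 84.4 FPKM in TALL104, and HSP90AA1 at 676 and 322 FPKM, both coding for chaperones. HSPA1A was at 0.118 FPKM in Jurkat and 13.5 FPKM in TALL104, but it is nearly identical to HSPA1B, so reads of the pair are uncertain. The share of FPKM from mitochondrially encoded genes was 14.9% in Jurkat and 20.6% in TALL104. Without those genes the same 5 factors passed, beside 26.1% of all human genes.

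**Figure D5:**
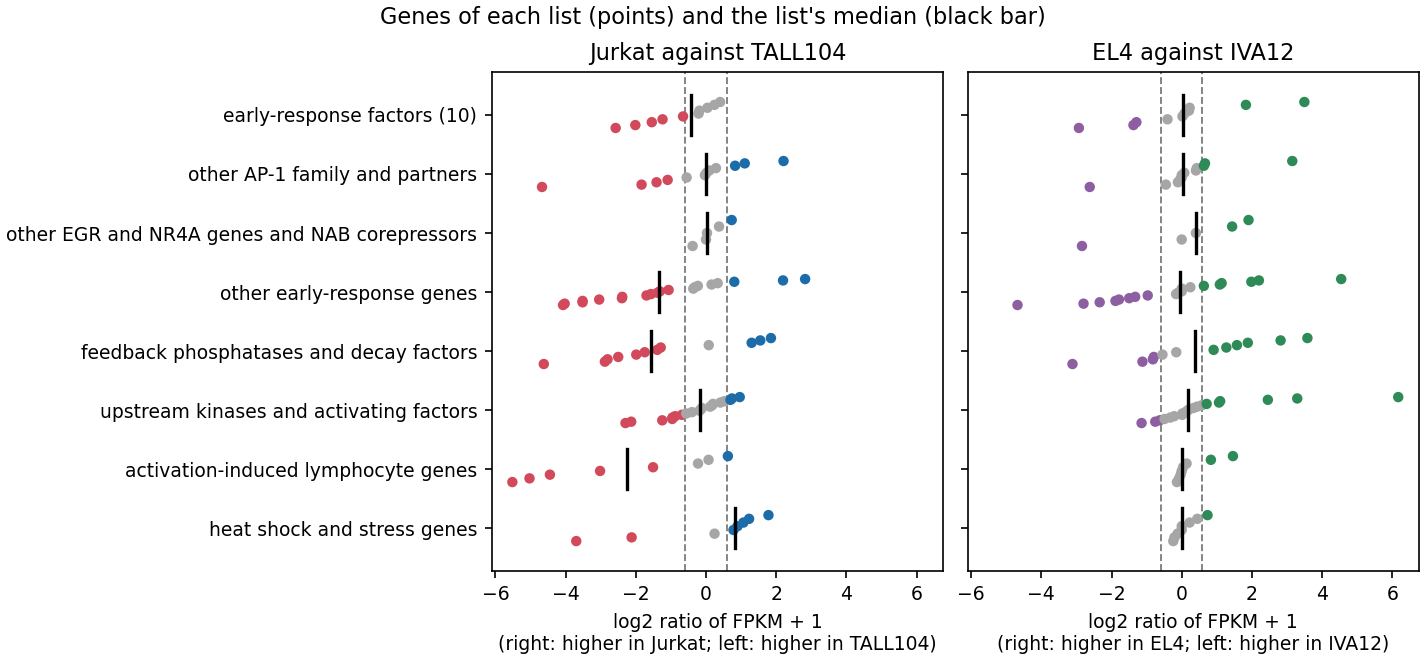
Log2 ratio of FPKM + 1 (x axis) of every gene in the 10-factor set and in 7 other lists (rows), for the 2 human lines (left) and the 2 mouse lines (right), from 1 library per line. Black bars are medians, dashed lines 1.5-fold and grey points genes within it. In the human pair the medians of the early-response, feedback and activation-induced lists lie toward TALL104, at -1.35, -1.57 and -2.26, and in the mouse pair all 8 medians lie between -0.1 and 0.5.

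The second comparison was between the mouse lines, the T-cell line EL4 and the B-lineage line IVA12. Again 5 of the 10 factors passed 1.5-fold, but in both directions. Jun, Junb and Jund were higher in IVA12, and Egr1 and Nr4a1 were higher in EL4. Over all mouse genes 21% passed, 9.75% higher in EL4 and 11.2% higher in IVA12. Among the 10801 genes with at least 1 FPKM in either line 50.3% passed, 23.8% higher in EL4 and 26.5% higher in IVA12. Of the 6 factors with at least 1 FPKM in either line, Fosl2 was the one that did not pass. The median log2 ratio over the 10, EL4 minus IVA12, was 0.05, beside 0 over all mouse genes. It was -0.04 over the genes with at least 1 FPKM in either line, a filter not put on the 10. Factors below 1 FPKM in both lines enter the median of the 10 with ratios drawn toward 0. The 6 factors with at least 1 FPKM in either line ran from -2.93 (Jun) to 3.49 (Nr4a1).

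The JUN family was higher in the B-lineage line. Jun had the widest gap of the 3, at 0.800 FPKM in EL4 (82 reads) and 12.7 FPKM in IVA12 (1025 reads), 15.9-fold higher in IVA12 (12.7 to 20.2; log2 ratio -2.93). Junb was at 10.1 FPKM in EL4 against 27.9 FPKM in IVA12, 2.75-fold higher (2.40 to 3.16; log2 ratio -1.37). Jund was at 10.9 FPKM in EL4 against 28.0 FPKM in IVA12, 2.58-fold higher (2.39 to 2.79; log2 ratio -1.29). All 3 genes thus went the same way, with the gap of Jun wider than those of Junb and Jund. On mm10 Jun (ENSMUSG00000052684) lies at chr4:95049034-95052222, Junb (ENSMUSG00000052837) at chr8:84974484-84978718 and Jund (ENSMUSG00000071076) at chr8:70698949-70700616. Jun overlaps Junos, Junb overlaps Prdx2 and Jund overlaps Gm11175, each on the opposite strand.

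The FOS family was low in both mouse lines and passed 1.5-fold for no member. Fos was at 0.701 FPKM in EL4 (53 reads) and 0.454 FPKM in IVA12 (27 reads), a ratio toward EL4 of 1.54 (0.954 to 2.55). Fosb was at 0.105 FPKM in EL4 (21 reads) and 0.0887 FPKM in IVA12 (14 reads). The intervals of both ratios include 1. Fosl2 was at 0.829 FPKM in EL4 (258 reads) and 1.42 FPKM in IVA12 (348 reads), 1.71-fold higher in IVA12 in FPKM (1.46 to 2.02) and within 1.5-fold on FPKM + 1 (log2 ratio -0.40).

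Egr1 was present in the T-cell line and listed at 0 in the B-lineage line. Its level was 2.55 FPKM in EL4 (368 reads) and 0 in IVA12, 96.5-fold higher in EL4 when IVA12 is taken at 3 reads, which would be 0.0265 FPKM. The counting interval of the ratio started at 78.1. Egr2 was at 0.0549 FPKM in EL4 (6 reads) and Egr3 at 0.154 FPKM in EL4 (7 reads), and both were listed at 0 in IVA12. With so few reads a difference for Egr2 was not detectable at this depth, since the counting interval of its ratio started at 0.926. For Egr3 that interval started at 1.13, and its reads are the fewest possible, since its recovered length did not match the annotation. No read was thus assigned to these 3 mouse genes in IVA12, at a depth of 25286728 reads. In the same library 19 reads were assigned to human EGR1 (0.239 FPKM), and the part of such reads in the 0 of mouse Egr1 was not tested.

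Nr4a1 was the leading factor in EL4 and almost unseen in IVA12. It was at 10.99 FPKM in EL4 (437 reads) and 0.0639 FPKM in IVA12 (2 reads), a ratio of 172 with a counting interval of 47.3 to 1424 (log2 ratio of FPKM + 1 of 3.49). Since its recovered length did not match the annotation, these reads are the fewest possible and the interval the widest. Nr4a1 (ENSMUSG00000023034) lies at chr15:101254269-101274795 on mm10, with no other annotated gene over it. On FPKM + 1 it had the largest log2 ratio of the 20 members in either pair, but with a pseudocount of 0.01 FPKM the log2 ratio of Egr1 was larger, 8.002 against 7.217.

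The levels of the JUN family genes thus ran against Egr1 and Nr4a1 in this pair. In the human pair every factor that passed on FPKM + 1 was higher in TALL104. In FPKM, however, human NR4A1 and EGR1 also ran against the JUN genes. They were higher in Jurkat, 3.33-fold (2.26 to 5.04) and 1.44-fold (1.04 to 2.01). For EGR1 the low end of the interval falls under 1 after the median scaling given below. With a pseudocount of 0.1 FPKM, NR4A1 passed toward Jurkat (log2 ratio 1.28). Both comparisons gave the higher JUN, JUNB and JUND level to the line with the fewer reads, TALL104 or IVA12. Since FPKM divides by the library total, the totals enter both levels, and dividing instead by the median ratio of genes shifted log2 FPKM ratios by -0.11 in human and 0.02 in mouse. On FPKM + 1 that moved the 10 human log2 ratios by -0.098 to -0.0056 and the 10 mouse ones by 0.0011 to 0.019. The same number of factors passed after that scaling, 5 in each pair, beside 24.8% of all human and 21% of all mouse genes.

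Of the 12 other AP-1 family genes and partners in mouse, 3 were higher in EL4, 1 was higher in IVA12 and 8 were within 1.5-fold. Batf, a JUN partner in activated lymphocytes, was at 10.8 FPKM in EL4 against 0.331 FPKM in IVA12. Jdp2, a repressor that dimerizes with JUN, was at 0.0827 FPKM in EL4 against 5.66 FPKM in IVA12. Mafg, a small MAF factor and the most abundant of the list, was at 14.1 and 19.6 FPKM. The partners of JUN therefore differed between the lines in both directions.

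Of the 5 other EGR and NR4A genes and NAB corepressors, 2 were higher in EL4 and 1 in IVA12. Nab2, an EGR corepressor whose gene is itself a target of EGR1, was at 4.20 FPKM in EL4 against 0.390 FPKM in IVA12. Nab1 was at 33.9 FPKM in EL4 against 11.9 FPKM in IVA12. Both corepressors were thus higher in EL4, where Egr1 was also higher, and a link was not tested. Nr4a2, of the same family as Nr4a1, was listed at 0 in EL4 and at 6.17 FPKM in IVA12, the opposite order to Nr4a1. Nr4a3, also of that family, had the order of Nr4a1 at low levels. It was at 0.358 FPKM in EL4 (69 reads) against 0.0264 FPKM in IVA12 (4 reads), within 1.5-fold on FPKM + 1. Its FPKM ratio was 13.6 (5.07 to 51.2).

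Of the 20 other early-response genes in mouse, 6 were higher in EL4, 8 were higher in IVA12 and 6 were within 1.5-fold (median log2 ratio -0.05). Btg2, an antiproliferative gene, was at 14.9 FPKM in EL4 against 405 FPKM in IVA12. Its relative Btg1 went the other way, at 31.9 FPKM in EL4 against 0.410 FPKM in IVA12. Of the 12 feedback genes, 6 were higher in EL4 and 4 in IVA12 (median log2 ratio 0.38). Dusp4, a nuclear phosphatase of MAP kinases, was at 10.97 FPKM in EL4 and listed at 0 in IVA12. Zfp36, which encodes the decay factor tristetraprolin, was at 1.37 FPKM in EL4 against 19.5 FPKM in IVA12, and its relative Zfp36l2 at 42.5 and 13.6 FPKM.

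Of the 20 upstream kinases and activating factors, 6 were higher in EL4, 3 were higher in IVA12 and 11 were within 1.5-fold (median log2 ratio 0.18). All 20 had at least 1 FPKM in either line, where 50.3% of genes passed, 23.8% higher in EL4 and 26.5% in IVA12. Rasgrp1 was at 73.0 FPKM in EL4 against 0.0282 FPKM in IVA12 (4 reads). Elk4, a partner of serum response factor at the CArG box, was at 11.7 FPKM in EL4 against 27.1 FPKM in IVA12. Srf and Elk3 went the other way, at 17.9 and 18.1 FPKM in EL4 against 7.86 and 0.947 FPKM in IVA12. Map2k1, the kinase MEK1, was at 32.5 FPKM in EL4 against 55.4 FPKM in IVA12. Of the 8 activation-induced genes, 2 were higher in EL4 and none in IVA12, and 6 were within 1.5-fold (median log2 ratio 0.02). Tnf led them, at 5.20 FPKM in EL4 against 1.25 FPKM in IVA12. Of the 8 heat shock and stress genes 1 passed, Ddit3, a stress factor of the endoplasmic reticulum, at 10.1 FPKM in EL4 against 5.66 FPKM in IVA12. The chaperone gene Hspa8, the most abundant of that list, was at 739 and 873 FPKM, and Hspa1a and Hspa1b were listed at 0 in both lines. The share of FPKM from mitochondrially encoded genes was 5.04% in EL4 and 4.79% in IVA12.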

How the data were processed

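Polyadenylated RNA of 4 cell lines was sequenced as 1 stranded library per line. Per the labels and the study's methods, the authors aligned reads with STAR 2.5.1b to a combined hg19 and mm10 reference and counted genes with featureCounts 1.6.3. The authors deposited FPKM for human and mouse genes in 1 table. Gene lengths, strand use and the counting of read pairs in the bulk data are not given in the sources used here.

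Reads were recovered from the FPKM as whole numbers over a gene length and a library total (relative tolerance 8e-12, lengths up to 300000 bases), and 100% of values above 0 came out whole. The length used equalled that of GENCODE (human release 44 on hg19, mouse release M21 on mm10) for 1 of 10 human and 6 of 10 mouse members. For the others the reads are the smallest whole numbers possible, so their intervals are the widest. Intervals are exact 95% Poisson (levels) and Clopper-Pearson (ratios), and cover counting error only.

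Lines were compared within species by the ratio of FPKM + 1, which shrinks the ratios of genes with low levels, at 1.5-fold. With 1 library per line no count model was used. The members and lists were chosen with earlier results of these data known. Named genes were all members and, from each list and pair, the largest ratio in each direction (at least 1 FPKM and past 1.5-fold) and the highest mean. Markers were named where they bear on a label. Mouse Srf, Elk3 and Nr4a3 were named beyond this rule, beside relatives or partners that it picked. A gene that this rule picked and 1 marker are not reported here. On simulated counts 200 of 200 changed genes were called in each pair, and 53 of 32538 and 18 of 27798 unchanged genes. The changed genes were drawn only from genes with mean levels well above 1 FPKM and were given changes of 2-fold or more. Their calls past 1.5-fold were thus near certain in advance. The unchanged genes were not split by level. These counts give no call rate for low genes, such as the factors below 1 FPKM, or for changes under 2-fold, such as that of JUNB. Nor do they measure variation between cultures of a line. Alternatives were other pseudocounts, folds, filters and scalings. Python 3.11.15, NumPy 2.4.6, pandas 2.3.3, SciPy 1.17.1, Numba 0.67.0 and matplotlib 3.10.9 were used.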

Additional observations from a re-analysis of the deposited data

Results flagged for a closer look

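Human genes were also read in the mouse library IVA12, and 7 of the 10 human factors stood there above the level of 3 reads. The levels were 0.0977 FPKM for FOS (8 reads), 0.0285 for FOSB (4 reads), 0.0553 for FOSL2 (10 reads), 0.0834 for JUN (7 reads), 0.275 for JUND (13 reads), 0.239 for EGR1 (19 reads) and 0.0380 for NR4A1 (7 reads). Reads of human genes were 0.212% of the IVA12 library, against 0.0497% in the other mouse library, EL4, where none of the 10 human factors was above 3 reads. FOS in IVA12 was 40.8% and EGR1 24.2% of its highest level in a human line. The median was 0.116% over the 12214 human genes with at least 1 FPKM in a human line, to which neither belongs, and a low level in the human lines raises such a percentage. Mouse Egr1 was listed at 0 in IVA12. Human FOS in IVA12 (interval 0.0422 to 0.193 FPKM) overlapped human FOS in Jurkat (0.0426 to 0.163 FPKM), so the 2 levels could not be told apart by counting error. The source of these reads was not tested.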

How the results depend on the processing

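With a pseudocount of 0.1 FPKM in place of 1, 8 of 10 human factors passed 1.5-fold (1 higher in Jurkat, 7 in TALL104) and 8 of 10 mouse factors (4 and 4). With 0.01 FPKM, 8 human (1 and 7) and 9 mouse factors (5 higher in EL4, 4 in IVA12) passed, beside 38.2% and 46.8% of all human genes and 31.4% and 39.4% of all mouse genes at the 2 pseudocounts. The factors gained were FOS, EGR3 and NR4A1 in human and Fosl2, Egr2 and Egr3 in mouse at both pseudocounts, and Fos at 0.01, all below 1.5 FPKM, where a smaller pseudocount draws ratios less toward 1. At 2-fold 4 human and 5 mouse factors passed, beside 15.3% of all human and 12.2% of all mouse genes. Counts stayed at 5 in each pair with the filter at 1 FPKM, which left 5 human and 6 mouse factors. There 62.6% of human and 50.3% of mouse genes passed. Counts also stayed at 5 with the median scaling, beside 24.8% of all human and 21% of all mouse genes. The same held without mitochondrially encoded genes (26.1% and 21.2%) and for the call that also needs a counting interval without 1 (25.1% and 20.9%). No factor's ratio changed its direction under these settings. The median log2 ratio of the mouse feedback list went from 0.38 to -0.03 at 0.01 FPKM, and that of the human B-lineage markers from -0.21 to 0.24 there and to 0.53 with the filter at 1 FPKM. No paired analysis was possible because each line had 1 library. Depth limits values under about 0.1 FPKM, which rest on a handful of reads, and the lack of replicates limits all differences.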

Other observations

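Reads of the factors of the other species were few in the remaining 3 libraries. In EL4, 4 of the 10 human factors had reads, the highest being JUND at 0.0333 FPKM (2 reads). In Jurkat 1 mouse factor had a read, Junb at 0.0312 FPKM, and in TALL104 2 had 1 read each, the higher being Egr3 at 0.0249 FPKM. None of these was above 3 reads.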
